A study of Mus musculus with 8 samples.

Results

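Signals of 8 C-type lectin receptor genes were followed: Mgl2, Clec10a, Mrc1, Cd207, Clec4e, Clec4d, Clec4n and Clec7a. They were read from all probe sets whose only gene symbol in the platform annotation is 1 of these 8, which gave 8 of the 12394 genes named in this way and 10 of the 22690 probe sets. Clec4e and Clec4n have 2 probe sets each and the other genes have 1. In these mouse dendritic cells, the endocytic receptors Mgl2, Clec10a and Mrc1 were lower after 4 h of TNFa alone. Clec4e was higher, and Cd207 rose from below detection. When vitamin D was given before TNFa, Mgl2, Clec10a and Mrc1 were higher and Cd207 was lower than with TNFa alone. Clec4e was high with TNFa with or without vitamin D. Both arrays with TNFa alone also had high ribosomal RNA control signals. That difference cannot be told apart from the effect of TNFa alone, or from the vitamin D differences measured against these arrays.

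The series measured dendritic cells grown from hind-leg bone marrow of male mice aged 9 weeks, and its title asks how vitamin D affects their activation by TNFa. VDRwt mice carry the normal vitamin D receptor, and per the labels VDRmut mice carry a receptor with its DNA-binding domain deleted. Progenitors of both genotypes were expanded with SCF, hyperIL-6, Flt-3L, IGF-1, dexamethasone and GM-CSF, and then differentiated for 7 days in GM-CSF. Cells received 1α,25-dihydroxyvitamin D3 (VD3) at 1e-06 M 30 min ahead of the cytokine or none, and TNFa at 50 ng/ml or none, and all were incubated for 4 h. Each genotype therefore has an untreated, a VD3, a TNFa and a VD3+TNFa array, 1 array per condition and 8 in all. The labels do not say whether the arrays came from separate mice or cultures, so every p-value below reflects no more than how far these arrays scatter, which can be technical. The number of arrays limits the precision.

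C-type lectin receptors bind sugars on microbes and on the body's own glycoproteins through a lectin domain that usually needs calcium. Some mainly carry cargo into the cell: Mgl2 and Clec10a are the mouse macrophage galactose-type lectins, Mrc1 is the mannose receptor, and Cd207 is langerin, the receptor that builds the Birbeck granules of Langerhans cells. Others signal: Clec4e (Mincle, a receptor for mycobacterial cord factor), its partner Clec4d (MCL) and Clec4n (Dectin-2, a receptor for fungal mannans) act through the Fc receptor gamma chain and Syk kinase, and Clec7a (Dectin-1) reads fungal beta-glucans through a Syk-coupling motif of its own. Immature dendritic cells are known for high sugar-receptor uptake, which declines as they mature.

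The promoters of 4 genes whose signal changed with TNFa, and of Clec4d, whose product pairs with that of Clec4e, are shown from RefSeq on GRCm38.p6. A window of 250 bases before to 50 bases after the gene start was available for 6 of the 8 genes. Each window was searched on both strands for AP-1 (TGANTCA), C/EBP (TTGCNNAA), PU.1 (GAGGAA), an NF-kB motif and a vitamin D response element, and matches are in capitals. The motifs were picked after the changes were known. Positions count the gene start as 1 and the base before it as -1.
Mgl2, chr11:70130107-70130406, plus strand: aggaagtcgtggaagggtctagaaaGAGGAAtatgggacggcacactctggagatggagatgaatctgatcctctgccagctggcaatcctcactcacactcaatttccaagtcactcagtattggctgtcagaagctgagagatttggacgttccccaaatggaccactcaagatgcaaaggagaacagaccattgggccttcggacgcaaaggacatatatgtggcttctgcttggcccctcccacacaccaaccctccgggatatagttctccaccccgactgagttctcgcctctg
Mrc1, chr2:14229164-14229463, plus strand: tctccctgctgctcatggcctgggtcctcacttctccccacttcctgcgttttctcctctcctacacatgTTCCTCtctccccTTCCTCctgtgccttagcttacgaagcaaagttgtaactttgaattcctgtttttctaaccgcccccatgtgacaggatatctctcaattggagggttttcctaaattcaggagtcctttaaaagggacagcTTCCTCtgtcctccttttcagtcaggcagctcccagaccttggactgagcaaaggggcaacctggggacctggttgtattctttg
Cd207, chr6:83677808-83678107, minus strand: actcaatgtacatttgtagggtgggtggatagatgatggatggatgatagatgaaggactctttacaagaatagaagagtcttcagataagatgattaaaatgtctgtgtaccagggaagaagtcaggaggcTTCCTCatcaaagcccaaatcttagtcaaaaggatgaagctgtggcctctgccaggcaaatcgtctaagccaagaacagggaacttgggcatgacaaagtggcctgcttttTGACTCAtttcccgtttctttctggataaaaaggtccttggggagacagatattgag
Clec4e, chr6:123289822-123290121, minus strand: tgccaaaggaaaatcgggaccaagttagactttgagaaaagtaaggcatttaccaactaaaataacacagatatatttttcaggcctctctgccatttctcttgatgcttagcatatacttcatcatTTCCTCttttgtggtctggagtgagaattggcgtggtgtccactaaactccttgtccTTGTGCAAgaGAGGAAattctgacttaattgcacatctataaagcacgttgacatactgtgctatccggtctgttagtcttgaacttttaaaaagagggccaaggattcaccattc
Clec4d, chr6:123261857-123262156, plus strand: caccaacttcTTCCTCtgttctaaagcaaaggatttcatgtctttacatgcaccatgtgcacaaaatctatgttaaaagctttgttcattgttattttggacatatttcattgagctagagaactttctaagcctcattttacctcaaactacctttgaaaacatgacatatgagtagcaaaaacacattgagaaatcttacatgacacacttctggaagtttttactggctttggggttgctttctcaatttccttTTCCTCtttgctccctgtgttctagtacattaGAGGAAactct

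The Cd207 window held an AP-1 match that ends at the base before the start (-7 to -1), and 7.808% of all 32851 windows of this length hold that motif. A C/EBP match at -66 to -59 lay in the Clec4e window, against 10.797% of all windows. PU.1 matches were in all 5 windows printed: 1 in Mgl2 at -225, 3 in Mrc1 at -180, -167 and -35, 1 in Cd207 at -118, 2 in Clec4e at -123 and -56, and 3 in Clec4d at -240, 8 and 40. PU.1 is the transcription factor that myeloid cells depend on, and this short motif is in 28.276% of all windows. The NF-kB motif, in 8.459% of all windows, and the vitamin D response element, in 0.04%, had no match in these windows. A match is a string of letters, not a measured binding site. No match overlapped another. Clec7a, which had no call in any comparison, is not printed. It also held a PU.1 match, at -96 or -90 by the gene start used. Clec10a and Clec4n had no window.

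For each probe set an array gives an intensity, called Signal, and a Detection call that is Present, Marginal or Absent. Between 46.5% and 51.5% of probe sets were Present on an array. The Vdr probe set with the most Present calls read 93.7, 185.7, 33.2 and 104.0 in VDRwt and 12.4, 67.2, 6.3 and 43.7 in VDRmut, in the order untreated, VD3, TNFa and VD3+TNFa. It was Absent with TNFa alone in both genotypes, so that pair is not ordered. In VDRmut it was also Absent untreated and with VD3+TNFa, and its other signals were Present. In the other matched pairs it was lower in VDRmut, and where it lies relative to the deleted part was not checked. Both arrays with TNFa alone stand apart: their control probe set for the 5' end of 18S ribosomal RNA read 9028 and 6847, against 3.5 to 224.0 on the other 6. The ratio of the actin 5' to 3' control signals, a sign of RNA quality, was 0.444 (untreated) and 0.449 (VD3+TNFa) in VDRmut, and the other 6 arrays had 0.781 to 0.889. Among the VDRwt arrays, TNFa and VD3+TNFa were scanned on another day than untreated and VD3, and VD3+TNFa with another fluidics protocol. The records of the VDRmut arrays are empty there. Where scan day was used as a block, the VDRmut arrays were placed with the first scan day of VDRwt. That block therefore sets the VDRwt arrays with TNFa apart from all others. It cannot separate scan day from a TNFa effect particular to VDRwt.

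Markers of dendritic cells were well detected, with 11 to 13 of 13 listed genes Present and a summed Signal of 32247 to 57509. Itgax, the gene of CD11c, was at 998.7 and 1167.9 with TNFa alone and at 3354.4 to 5138.3 on the other arrays. Irf8 on the same list went the other way, at 3126.5 and 2290.9 with TNFa alone and at 630.2 to 1060.8 elsewhere. Neutrophil markers were also present and moved with the groups. Their summed Signal over 12 genes was 10823, 10052, 3790 and 10877 in VDRwt and 32032, 27764, 13601 and 20664 in VDRmut, in the same order of treatments. T, B, NK and erythroid markers had no more than 1 gene Present on any array. In whole-culture RNA, fewer cells of a type and less RNA per cell cannot be told apart.

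**Figure D1:**
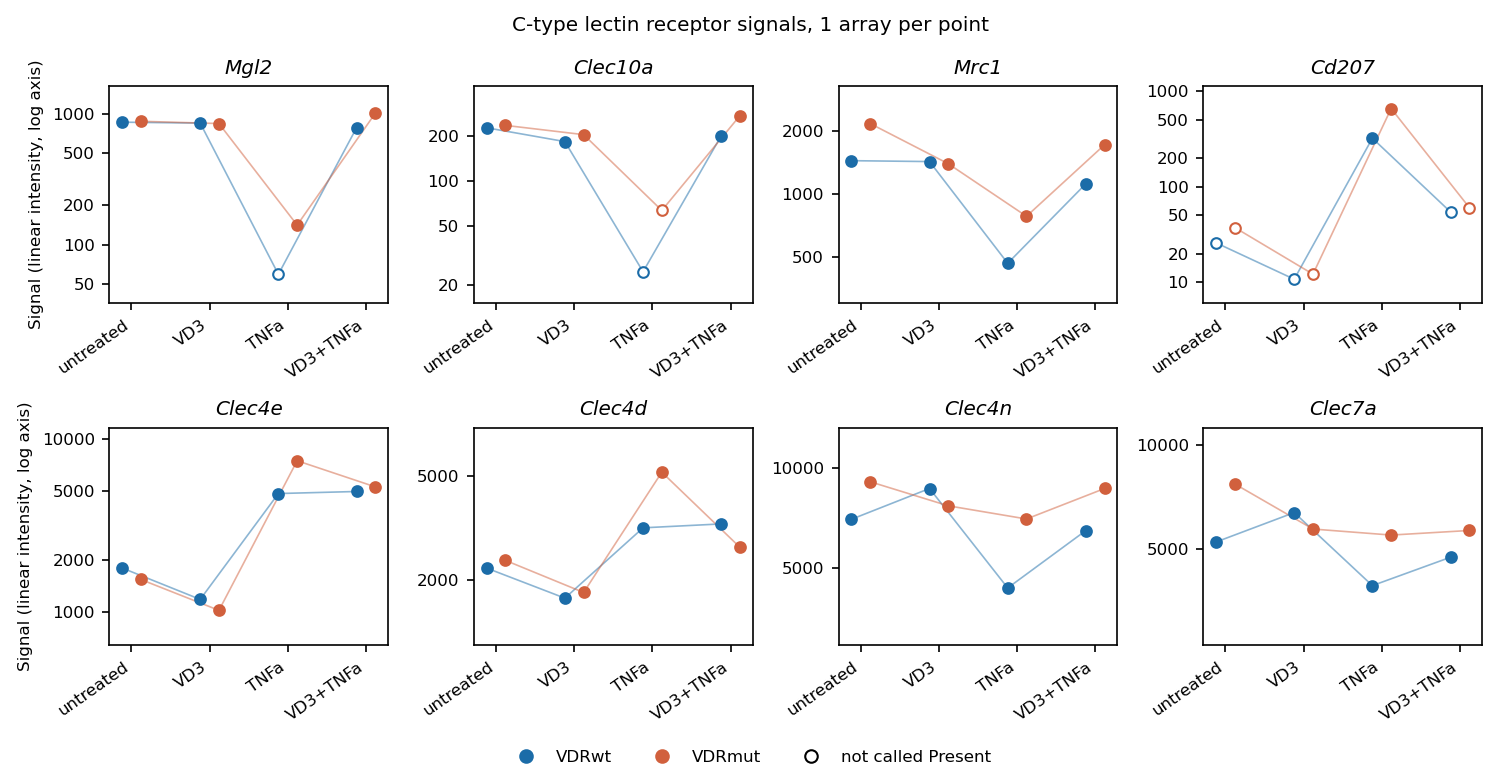
Signal of each receptor gene on the 8 arrays (log axis with its own range in each panel, 1 array per point, brightest probe set where a gene has 2). Blue points are VDRwt, orange points VDRmut, and open points were not called Present. Mgl2, Clec10a and Mrc1 are lowest and Cd207 is highest on the arrays with TNFa alone, and Clec4e is high on all 4 arrays with TNFa.

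Of the 8 genes, 5 passed the test for TNFa given without VD3, 3 lower and 2 higher. Over all 12832 probe sets kept, 11.1% passed, 5.39% lower and 5.66% higher. The test was limma on log2 Signal with treatment and genotype in the model, and passing means a Benjamini-Hochberg adjusted p under 0.05 over all kept probe sets. Both genotypes serve as the replicates of each treatment, which leaves 3 residual degrees of freedom. The residual scatter of a probe set is thus how far its treatment changes differ between the genotypes. A response that truly depends on genotype counts as scatter in this test. The median log2 change of the 8 genes was -0.49, against 0.04 over all probe sets. All 10 probe sets passed the filter of 2 Present calls, and 7 of them, from 5 genes, were Present on all 8 arrays. Cd207 passed it only through the 2 arrays with TNFa alone, so the count without it was 4 of 7.

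Mgl2 encodes a lectin for terminal galactose and N-acetylgalactosamine that marks a subset of dendritic cells. Its Signal was 862.8 untreated, 849.0 with VD3, 59.2 with TNFa and 782.1 with VD3+TNFa in VDRwt, and 876.5, 842.1, 140.8 and 1011.3 in VDRmut. The 6 arrays without TNFa alone lay close together, both arrays with TNFa alone lay far below them, and the VDRwt one was called Absent. TNFa without VD3 lowered Mgl2 9.53-fold, a log2 change of -3.25 ± 0.31 (SE, limma adjusted p = 0.0011). The fall was 14.6-fold in VDRwt, with the Absent TNFa signal taken at face value, and 6.23-fold in VDRmut. With VD3 the TNFa change was 0.07 (95% interval -0.63 to 0.78, limma adjusted p = 0.910).

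Clec10a, the close paralog of Mgl2 with a different preference among galactose-bearing sugars, had the same shape. Its Signal was 226.9, 183.3, 24.5 and 200.5 in VDRwt and 235.5, 204.1, 63.2 and 274.1 in VDRmut, in the order untreated, VD3, TNFa and VD3+TNFa. Both arrays with TNFa alone were called Absent, and every other array was Present and higher. With the Absent signals taken at face value, the fall with TNFa was 5.87-fold (log2 -2.55 ± 0.34, limma adjusted p = 0.0031). A fold of this kind is not a lower bound. The Absent signals lie above the lowest Present signals of any probe set, 3.1 to 8.4, but that is not the detection limit of this probe set. It was still Absent at 63.2. With signals raised to a floor of 50 the log2 change was -2.04 (limma adjusted p = 0.0330). With VD3 the TNFa change was 0.28 (-0.49 to 1.04). The array's own file lists the Mgl2 probe set under the same older gene record as Clec10a, so how far each probe set reads the other paralog is uncertain.

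Mrc1, the mannose receptor, was Present on all arrays. It read 1443.7, 1429.6, 466.4 and 1120.4 in VDRwt and 2173.7, 1395.9, 782.3 and 1722.2 in VDRmut, in the same order. Both signals with TNFa alone were below all 6 others. The fall was 2.93-fold (log2 -1.55 ± 0.24, limma adjusted p = 0.0050), and -0.02 (-0.56 to 0.51) with VD3. Without the VDRwt TNFa array the change was -1.38 and its adjusted p 0.0532, and with scan day as a block -1.35 and 0.0510, so this call did not hold there.

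Cd207 went the other way. It was Absent on 6 arrays, at 25.9 untreated, 10.8 with VD3 and 54.3 with VD3+TNFa in VDRwt and at 37.4, 12.2 and 60.4 in VDRmut. On the arrays with TNFa alone it was Present, at 319.5 in VDRwt and 651.9 in VDRmut. With the Absent signals at face value, the rise was 14.7-fold (log2 3.87 ± 0.36, limma adjusted p = 0.0010). The log2 change was 3.19 with signals raised to a floor of 50. Cd207 passed the detection filter only through the arrays with TNFa alone, where it is high. Its p-values are therefore not independent of that filter and are given as a description. With VD3 the TNFa contrast also passed (log2 2.32 ± 0.36, adjusted p = 0.0405), but all 4 arrays in it were Absent, so no fold is given. That call was lost with signals raised to a floor of 50 (0.20, adjusted p = 0.760) and without any of 5 of the 8 arrays (adjusted p 0.0529 to 0.239), namely both VD3 arrays, both VD3+TNFa arrays and the VDRmut TNFa array.

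Other genes of the Langerhans cell list did not move as 1 group. Epcam, an adhesion molecule of those cells, was Absent on all 8 arrays. Cdh1 (E-cadherin) read 60.3 and 68.1 with TNFa alone against 378.7 to 813.5 elsewhere and passed the test as lower (log2 -3.29, limma adjusted p = 0.000634). Mfge8, which codes for a bridging protein in the uptake of dying cells, read 4136.5 and 3880.3 against 949.7 to 1738.0 and passed as higher (1.43, adjusted p = 0.0048). Cd207 was therefore accompanied by 1 rise, 1 fall and 1 undetected gene among the other 3 on the list.

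Clec4e, which codes for Mincle, was the signalling receptor with a change past the threshold. Its brighter probe set read 1804.1, 1186.7, 4859.8 and 4995.2 in VDRwt and 1547.8, 1025.8, 7522.2 and 5310.9 in VDRmut, in the order untreated, VD3, TNFa and VD3+TNFa. All 4 arrays with TNFa, with or without VD3, were above all 4 without it. TNFa raised Clec4e 3.62-fold without VD3 (log2 1.86 ± 0.25, limma adjusted p = 0.0031). With VD3 the rise was 4.67-fold (2.22 ± 0.25, adjusted p = 0.0175).

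The dimmer Clec4e probe set separated the arrays in the same way. It read 383.5, 198.6, 779.7 and 1082.0 in VDRwt and 250.3, 153.4, 1562.6 and 887.1 in VDRmut. Its log2 changes were 1.83 (limma adjusted p = 0.0136) without VD3 and 2.49 (adjusted p = 0.0352) with VD3. The call with VD3 rests on few arrays. For the brighter probe set it was lost without the VDRwt VD3 array (adjusted p = 0.0977), the VDRwt VD3+TNFa array (0.123), the VDRmut VD3 array (0.142) or the VDRmut VD3+TNFa array (0.203), while the log2 change stayed between 2.03 and 2.41.

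Among the 8 genes, 2 passed for TNFa given with VD3, Clec4e and Cd207, and 1 of 7 without Cd207, where 0.803% of all probe sets passed, 0.639% as higher. The median over the 8 genes was 0.18, and over all probe sets -0.07.

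Clec4d, the Mincle partner, was above its untreated and VD3 signals on every array with TNFa but did not pass. It read 2212.8, 1694.9, 3164.2 and 3276.2 in VDRwt and 2369.3, 1782.4, 5185.7 and 2660.2 in VDRmut. The lowest TNFa array, VDRmut VD3+TNFa, exceeded the highest without TNFa, VDRmut untreated, by a small margin. The log2 change was 0.82 ± 0.25 without VD3 (1.77-fold, limma adjusted p = 0.0707) and 0.76 with VD3 (adjusted p = 0.130). Its probe set is of a class that can match several related transcripts.

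Clec4n (Dectin-2) and Clec7a (Dectin-1) had high signals on all 8 arrays and no call in any comparison. Clec4n by its brighter probe set read 7018.8, 8693.6, 4356.5 and 6493.7 in VDRwt and 9111.7, 7708.5, 7034.4 and 8695.1 in VDRmut. The VDRwt TNFa array was the lowest, and the VDRmut TNFa array lay within the range of the others. The TNFa change without VD3 was -0.53 ± 0.24 (limma adjusted p = 0.196). The brighter probe set is of the same class as that of Clec4d, which can match several related transcripts. The dimmer probe set, which the array file describes by a beta isoform, ran from 2817.3 on the VDRwt TNFa array to 7871.6 on the VDRmut VD3+TNFa array, with -0.66 (adjusted p = 0.207).

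Clec7a read 5252.1, 6380.7, 3935.9 and 4749.3 in VDRwt and 7711.9, 5722.8, 5498.9 and 5668.5 in VDRmut. The groups with and without TNFa overlapped. Its TNFa change was -0.45 (95% interval -0.97 to 0.06, limma adjusted p = 0.245) without VD3 and -0.22 (-0.73 to 0.29) with VD3. Intervals this wide leave a moderate fall undetectable with 8 arrays. Highest over lowest Signal was 1.96 for Clec7a and 2.09 for the brighter Clec4n probe set, the narrowest ranges of the 10 probe sets, and 17.1 for Mgl2 and 60.4 for Cd207.

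**Figure D2:**
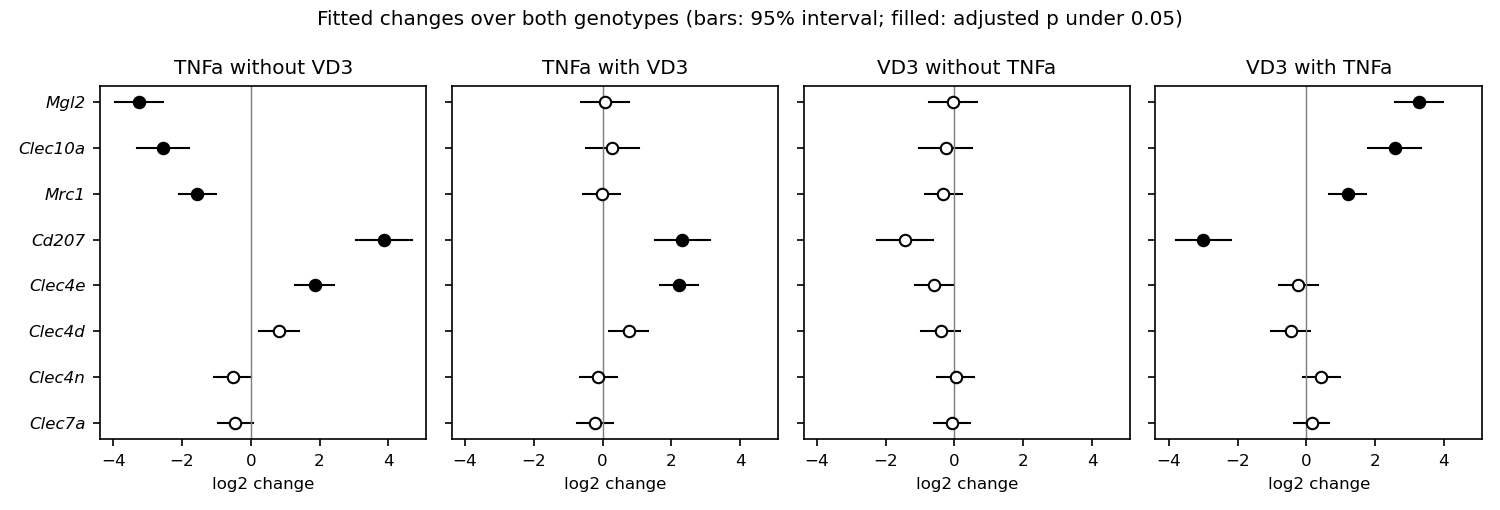
Fitted log2 change of each receptor gene over both genotypes in 4 comparisons (points: limma estimate; bars: 95% interval; filled points: adjusted p under 0.05). Mgl2, Clec10a and Mrc1 lie left of 0 with TNFa alone and right of 0 for VD3 with TNFa, Cd207 mirrors them, and Clec4e lies right of 0 for TNFa in both VD3 states. The filled Cd207 point for TNFa with VD3 rests on 4 Absent signals.

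Markers of other cells moved on the same arrays. Neutrophil markers fell with TNFa alone in 7 of 11 tested genes, and macrophage markers in 3 of 8, where 5.39% of all probe sets passed as lower. Fcgr1, one of those macrophage markers, read 100.5 and 174.6 with TNFa alone against 507.6 to 745.4 elsewhere. The summed Signal of the macrophage list was 7335 and 12055 with TNFa alone and 10144 to 11886 on the other arrays, so it overlapped. The mast cell and basophil list summed to 1422 and 905 with TNFa alone against 398 to 670, with 1 of 3 tested genes higher, where 5.66% of all probe sets passed as higher. Of the 13 tested dendritic cell markers 2 passed as higher (Irf8 and Flt3) and 2 as lower (Itgax and Csf2ra). The shares of all probe sets were 5.66% higher and 5.39% lower. The high 18S signals lie on the same 2 arrays with TNFa alone. The part of the marker genes in the receptor changes was not tested, and the 18S difference and the effect of TNFa alone cannot be told apart. Within VDRmut, TNFa without VD3 changed Mgl2 by -2.64, Mrc1 by -1.47 and Clec4e by 2.28 on the log2 scale. With Absent signals at face value, Clec10a was 3.73-fold lower and Cd207 17.4-fold higher there. The Cd207 probe set was still Absent at 60.4 in VDRmut with VD3+TNFa. The untreated array of these VDRmut pairs has a low actin ratio, and no scan day is recorded for VDRmut. Without the 2 arrays of low actin ratio, only VDRwt arrays remain for untreated and VD3+TNFa cells, so that fit is given by size alone. There the log2 change was -3.55 for Mgl2, -2.91 for Clec10a, -1.43 for Mrc1, 1.64 for Clec4e and 3.84 for Cd207. In VDRwt, scan day and TNFa cannot be told apart.

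VD3 by itself changed no receptor past the threshold, nor any of the 12832 probe sets (0%, limma, adjusted). Without adjustment 977 probe sets had a p under 0.05, and 2 of the 8 genes did. Clec4e was 1.51-fold lower with VD3 (log2 -0.60, 95% interval -1.16 to -0.04, limma adjusted p = 0.629), by -0.60 in VDRwt and -0.59 in VDRmut. Cd207 was at -1.44 (limma adjusted p = 0.629), with Absent calls throughout. For Mgl2 the change was -0.04 (-0.74 to 0.66), for Clec10a -0.26 (-1.02 to 0.51) and for Mrc1 -0.33 (-0.86 to 0.21).

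In the presence of TNFa, VD3 moved 4 of the 8 genes past the threshold, 3 higher and 1 lower, where 6.97% of all probe sets passed (3.4% higher, 3.57% lower). Without Cd207 the count was 3 of 7. This comparison uses both arrays with TNFa alone, as does TNFa without VD3, so the signs of these comparisons are not independent of each other. Mgl2 was 9.74-fold higher with VD3+TNFa than with TNFa (log2 3.28 ± 0.31, limma adjusted p = 0.0013), at least 13.2-fold in VDRwt, against the Absent TNFa signal, and 7.18-fold in VDRmut. Clec10a was at least 5.96-fold higher (2.57 ± 0.34, adjusted p = 0.0052). Cd207 was at least 7.97-fold lower (-2.99 ± 0.36, limma adjusted p = 0.0041), with both VD3+TNFa signals Absent. Here too Cd207 was in the test only through the arrays with TNFa alone. With signals raised to a floor of 50 the calls of Mgl2 (adjusted p = 0.0574), Cd207 (0.0541) and Mrc1 (0.0931) were lost at unchanged log2 changes, and that of Clec10a held.

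Mrc1 was 2.30-fold higher with VD3+TNFa (log2 1.20 ± 0.24, limma adjusted p = 0.0196). Its call was lost without the VDRwt TNFa array (1.02, adjusted p = 0.152), the VDRwt VD3+TNFa array (1.29, 0.106), the VDRmut VD3+TNFa array (1.11, 0.182) or both arrays of low actin ratio (1.07, 0.0741). The Clec10a call was lost without the VDRmut VD3+TNFa array (2.61, adjusted p = 0.0585). The VD3 difference with TNFa was -0.23 (-0.79 to 0.33) for Clec4e, -0.46 (-1.03 to 0.11) for Clec4d, 0.44 (-0.10 to 0.98) for Clec4n and 0.16 (-0.36 to 0.67) for Clec7a. The dimmer Clec4n probe set gave 0.92 (limma adjusted p = 0.107), so its estimate was larger than that of the brighter probe set. In VDRwt both arrays of this comparison share a scan day but differ in fluidics protocol, and the part of the protocol was not tested. Neutrophil markers were higher with VD3+TNFa than with TNFa in 6 of 11 genes, where 3.4% of all probe sets passed as higher, and the 18S signals were lower, as given above.

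Whether VD3 altered the TNFa response itself is the difference between the TNFa changes with and without VD3. Mgl2 and Clec10a passed this test, 2 of the 8 genes, where 1.77% of all probe sets passed, 0.959% in the higher and 0.81% in the lower direction. The difference was 3.32 ± 0.44 for Mgl2 (limma adjusted p = 0.0141) and 2.83 ± 0.48 for Clec10a (adjusted p = 0.0284). In VDRwt the Mgl2 response to TNFa went from -3.87 to -0.12, and in VDRmut from -2.64 to 0.26. The VDRwt Mgl2 signal with TNFa alone was Absent, so -3.87 rests on an undetected signal. Clec10a was Absent with TNFa alone in both genotypes, so the size of its fall without VD3 rests on undetected signals. At face value the fall was 9.26-fold in VDRwt and 3.73-fold in VDRmut. The log2 change of Clec10a with VD3 was 0.13 and 0.43. The difference between the TNFa responses uses both arrays with TNFa alone. Their high ribosomal RNA control signals cannot be told apart from it.

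Mrc1 had a difference of 1.53 ± 0.33 (limma adjusted p = 0.0581) and Cd207 one of -1.56 ± 0.50 (adjusted p = 0.137), and neither passed. For Clec4e it was 0.37 (-0.42 to 1.16), for Clec4d -0.06 (-0.86 to 0.75), for Clec4n 0.41 (-0.35 to 1.17) and for Clec7a 0.23 (-0.49 to 0.96). The Mgl2 call was lost without the VDRwt VD3+TNFa (adjusted p = 0.0668), VDRmut VD3 (0.138) or VDRmut VD3+TNFa array (0.0708). With signals raised to a floor of 50 the Mgl2 (0.127) and Clec10a (0.102) calls were both lost, and without the detection filter that of Clec10a (0.0648). The Clec10a call was also lost without any of 6 of the 8 arrays, all but VDRwt untreated and VDRmut TNFa, at adjusted p 0.0604 to 0.199.

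**Figure D3:**
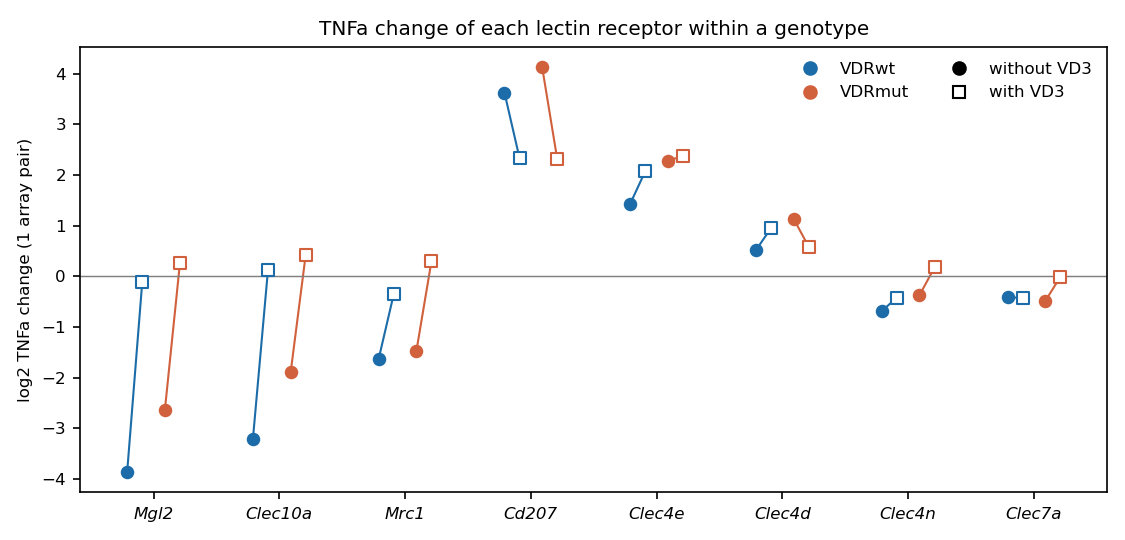
TNFa change of each receptor gene within a genotype, as the log2 ratio of 1 pair of arrays (circles: without VD3; squares: with VD3; lines join the same genotype; blue VDRwt, orange VDRmut). The lines of Mgl2 and Clec10a are long, those of Mrc1 are shorter, and all of these end near 0 in both genotypes. Those of Clec4e, Clec4d, Clec4n and Clec7a are short. The Clec10a circles, the VDRwt Mgl2 circle and all Cd207 points rest on at least 1 Absent signal.

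Genotype changed no receptor past the threshold, where 0.0623% of all probe sets passed (0.0546% higher and 0.00779% lower in VDRmut). Across the 8 genes VDRmut minus VDRwt ran from 0.07 for Clec4e to 0.51 for Clec10a on the log2 scale. Mrc1 had the lowest adjusted p, with 0.48 ± 0.17 (limma adjusted p = 0.626), from 0.75 with TNFa and 0.59 untreated to -0.03 with VD3. The signals with TNFa alone were higher in VDRmut for every receptor probe set except that of Clec10a, which was Absent on both arrays and is not ordered. The difference was 1.25 for Mgl2, with its Absent VDRwt signal at face value, 1.03 for Cd207 and 0.63 for Clec4e by its brighter probe set. These are single pairs of arrays and were not tested. Of 11 tested neutrophil genes 6 passed as higher in VDRmut, against 0.0546% of all probe sets, and the part of those cells in the receptor values was not tested.

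The VD3 effect did not differ between genotypes past the threshold for any receptor, nor for any probe set (0%, limma). Without adjustment 390 of all probe sets and 0 of the 8 genes had a p under 0.05. That test averages over TNFa and has 2 residual degrees of freedom. Its estimates ran from -0.61 for Cd207 to -0.27 for Clec4e, each with an adjusted p of 0.9999 and with intervals such as -1.47 to 0.56 for Mgl2. In VDRwt alone Mgl2 changed by 1.85 with VD3 (adjusted p = 0.119) and in VDRmut by 1.39 (adjusted p = 0.506), both averaged over TNFa, where 0.0156% of all probe sets passed in either genotype. No receptor passed in 1 genotype.

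A list of 38 other lectin receptors held 29 genes on the array, of which 14 were tested. TNFa without VD3 raised 3 and lowered 2 of them, with a median of -0.08, where 11.1% of all probe sets passed (5.66% higher, 5.39% lower). Asgr2, a subunit of the asialoglycoprotein receptor for galactose-ended glycoproteins, read 312.4, 318.5, 58.5 and 180.5 in VDRwt and 201.4, 325.0, 39.4 and 227.6 in VDRmut. It was lowest on both arrays with TNFa alone and fell 5.22-fold (log2 -2.39 ± 0.30, limma adjusted p = 0.0025). Clec4a2, the inhibitory receptor DCIR, read 1367.1, 1062.2, 397.2 and 1667.5 in VDRwt and 1544.0, 1422.9, 619.6 and 1447.7 in VDRmut. Here too both signals with TNFa alone were below all others, with a 2.93-fold fall (-1.55 ± 0.24, adjusted p = 0.0054).

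Ly75, which codes for the endocytic receptor DEC-205 of mature dendritic cells, read 90.0, 85.4, 571.8 and 148.4 in VDRwt and 81.4, 102.6, 323.6 and 210.1 in VDRmut. It rose 5.03-fold with TNFa alone (log2 2.33 ± 0.33, limma adjusted p = 0.0038). Colec12, a scavenger receptor with a lectin domain, rose by 1.95 (adjusted p = 0.0172) and Klrk1, the NKG2D receptor, by 1.86 (adjusted p = 0.0110). None of the 14 passed for TNFa with VD3, where 0.803% of all probe sets did. For VD3 with TNFa, Asgr2 (2.08, adjusted p = 0.0067) and Clec4a2 (1.65, 0.0070) passed as higher and Klrk1 (-2.12, 0.0094) as lower, where 6.97% of all probe sets passed. Clec4a2 alone of the 14 passed for the difference between the TNFa responses (1.89, limma adjusted p = 0.0337), against 1.77% of all probe sets.

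A second list held 38 genes of lectin receptor signalling, 30 of them on the array and 28 tested. With TNFa alone 4 rose and 3 fell, against the same 11.1% of all probe sets, and the median was 0.05. The risers were the NF-kB subunits Relb (log2 1.44, limma adjusted p = 0.0126) and Rel (1.25, 0.0226), the kinase gene Ikbkb (1.16, 0.0133) and the exchange factor gene Vav3 (1.31, 0.0252). Vav3 was Absent on both untreated arrays, and its change takes those signals at face value. Those that fell were Pycard, the inflammasome adaptor ASC (-1.41, 0.0042), Inpp5d, the phosphatase SHIP-1 (-0.97, 0.0231), and Prkcd, a kinase between Syk and Card9 (-0.94, 0.0452). The kinase Syk and the gamma chain gene Fcer1g, shared by Mincle, MCL and Dectin-2, did not pass, at 0.11 and -0.71. With VD3 none of the 28 passed for TNFa, against 0.803% of all probe sets. VD3 with TNFa raised Prkcd (0.99, limma adjusted p = 0.0489) and Pycard (0.80, 0.0497) and lowered Relb (-1.25, 0.0303) and Ikbkb (-1.09, 0.0234), again against 6.97% of all probe sets.

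**Figure D4:**
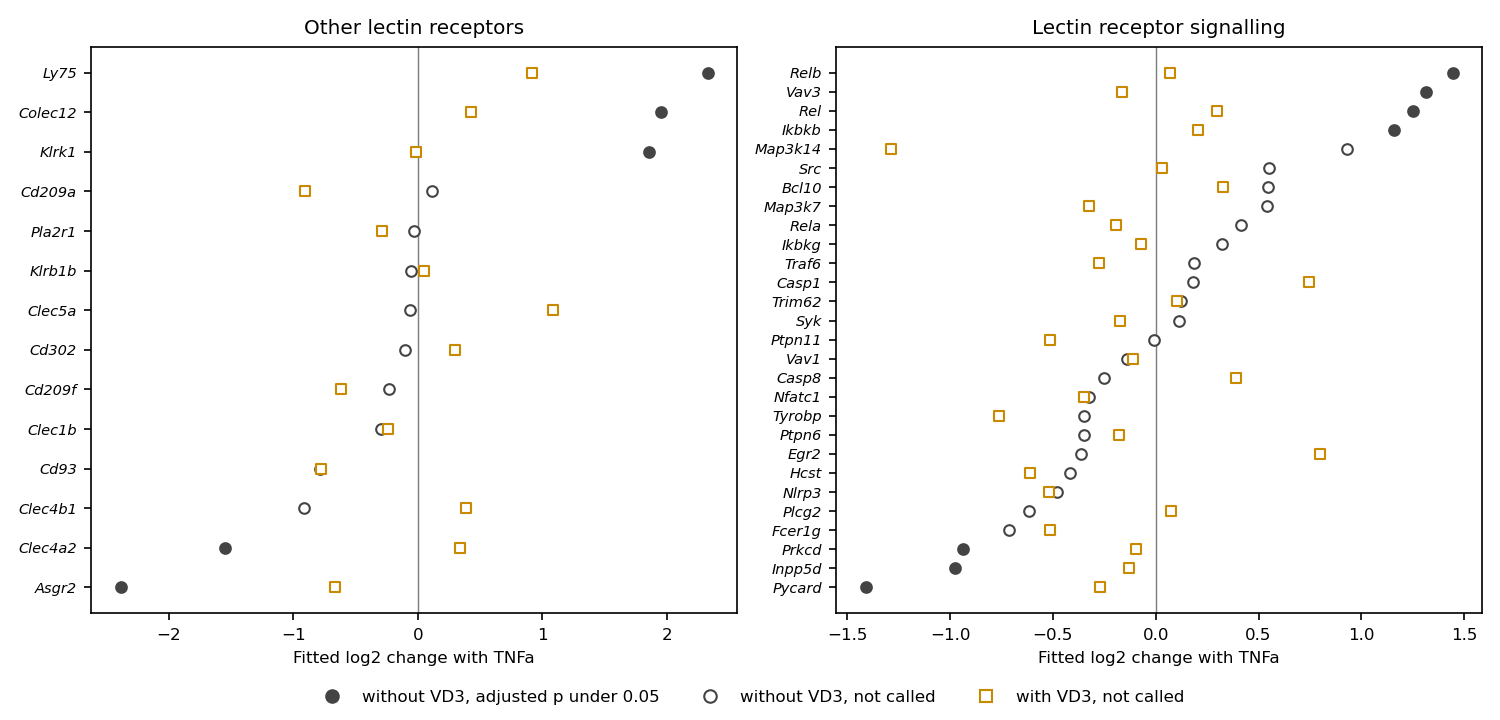
Fitted log2 change with TNFa of the 14 tested other lectin receptors and the 28 tested signalling genes, ordered by the change without VD3 (circles: without VD3, filled where the adjusted p was under 0.05; squares: with VD3, none called). Ly75, Colec12 and Klrk1 are the filled points on the right of the receptor panel, and Clec4a2 and Asgr2 those on the left.

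The genes most like each receptor over the 8 arrays were found by the correlation of log2 Signal among the 12832 kept probe sets, as a description. Gsn, the actin-severing protein gelsolin, was nearest to Mgl2 (r = 0.998) and Plet1 nearest to Clec10a (r = 0.992), with Mgl2 itself at 0.991. Mrc1 was nearest to Hdac1 (0.983), a histone deacetylase gene, and Bola2 (0.981). Clec4e was nearest to Krr1 (0.989) and Rnd3 (0.987), and Clec4d to Lhx6 (0.974). Cd207 ran with Crk (0.985) and Marcks (0.984), Clec4n with Arhgap9 (0.969) and Clec7a with Etfb (0.956). With 8 points that share their 2 arrays of TNFa alone, high values of r are common, and they give no function or control.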

How the data were processed

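RNA of cultured dendritic cells was hybridised to Affymetrix MOE430A arrays, 8 in all and 1 for each condition. Each deposited array table gives 22690 probe sets a Signal, which per the file headers is an intensity on a linear scale, and a Detection call. MAS5 is the program in the submitters' processing notes, its version not given. The 2% trimmed mean of Signal was 200.1 on every array, so the arrays were on 1 scale before deposit. The deposited series matrix holds the same intensity values to within 0.05.

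Signals were analysed as log2 values, with 0.1 in place of 3 zeros. Of the probe sets that are not among the 64 controls, those with at least 2 Present calls were kept, 12832 in all. Genes were named from the platform annotation, in which 20393 probe sets have 1 symbol, 691 several and 1606 none. All 8 symbols of the receptors match RefSeq on GRCm38.p6 by gene ID. The brightest probe set stood for a gene in counts.

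The lmFit and eBayes functions (with trend) of limma 3.58.1, run under R 4.3.3, gave the changes, with treatment and genotype as terms, and genotype by VD3 added for that comparison. P-values were Benjamini-Hochberg adjusted over all kept probe sets, with a threshold of 0.05. The fit was tested on simulated data. Samples were grouped by title. The members and lists were chosen with earlier results of these data known. From the 2 lists, genes called in a comparison were named, up to 6 for each list and comparison, and for likeness the nearest genes by r. Alternatives were quantile normalization, no detection filter, a signal floor of 50, scan day as a block, the series matrix, leaving out the arrays of low actin ratio, leaving out each array, a model with 1 TNFa effect and, added after the data were seen, the dimmer probe set of Clec4e and Clec4n.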

Additional observations from a re-analysis of the deposited data

Results flagged for a closer look

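The TNFa response differed between cells with and without VD3 past the threshold for 2 receptors (limma, all 8 arrays, adjusted over 12832 probe sets). For Mgl2 the difference between the log2 changes was 3.32, and in VDRwt and VDRmut alike the TNFa change lay nearer to 0 with VD3 than without it. For Clec10a the difference was 2.83, with the same order in both genotypes. Both rest on 1 array per condition. Both also use the arrays with TNFa alone, which had high ribosomal RNA control signals. The part of that signal difference in these results was not tested. Both calls were lost with signals raised to a floor of 50 (limma adjusted p = 0.127 and 0.102) and without some single arrays, and Clec10a was Absent on both arrays with TNFa alone.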

How the results depend on the processing

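Pairing by mouse or culture was not possible, because the labels carry no replicate numbers and each condition has 1 array. Treatments were compared within genotype, since genotype is a term of the model. No called value changed sign under any alternative run, and 46 values of single receptors that were called under neither setting did. TNFa without VD3 gave 1418 probe sets, against 512 with a floor of 50 and 342 with scan day as a block. TNFa with VD3 gave 103, against 6 without the detection filter, 1 with the floor, 1 with the scan day block and 168 without the arrays of low actin ratio, and the receptor count of 2 became 0 in the first 3 of these. VD3 without TNFa gave 0, and 1 with the floor. VD3 with TNFa gave 894, against 578 without the filter and 96 with the floor, which left 1 receptor called. The difference between the TNFa responses gave 227, against 56 without the filter, 10 with the floor, 136 with the scan day block and 144 without the arrays of low actin ratio. There 1 receptor stayed called without the filter and 0 with the floor. Genotype gave 8, against 3 without the filter, 0 with the floor and 2 with the scan day block. Why these counts moved was not tested. The scan day block marks only the VDRwt arrays with TNFa, since no scan day was recorded for VDRmut.

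Leaving out each array gave 365 to 1089 probe sets and 4 to 5 receptors for TNFa without VD3, 0 to 692 and 0 to 2 for TNFa with VD3, 0 to 59 and 0 for VD3 without TNFa, 104 to 1176 and 2 to 4 for VD3 with TNFa, 7 to 470 and 0 to 2 for the difference between the TNFa responses, 2 to 8 and 0 for genotype, and 0 to 17 and 0 for VD3 by genotype. The calls of Mgl2, Clec10a, Clec4e and Cd207 for TNFa without VD3 held without each array. A model with 1 TNFa effect over both VD3 states called 29 probe sets, and gave -1.59 for Mgl2 (limma adjusted p = 0.230), -1.14 for Clec10a (0.316) and -0.79 for Mrc1 (0.242). VD3 by genotype without the arrays of low actin ratio was not run, since no residual degrees of freedom remain. In the other comparisons that setting leaves only VDRwt arrays for untreated and VD3+TNFa cells. Signals near background limit Cd207, and Clec10a and Mgl2 on the arrays with TNFa alone.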
